A study of Mus musculus with 2 samples.

Results

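C1q-high tumor macrophages were examined in single-cell RNA sequencing of mouse pancreatic tumors. They were selected on their own measured transcripts. A barcode, which stands for a single captured cell, was first kept if it had at least 1000 unique molecular identifiers (UMIs, counted transcripts), 200 to 5000 genes and at most 8% mitochondrial UMIs. A kept barcode was called a macrophage with at least 3 UMIs of Csf1r, Adgre1 and Cd68 together, no UMI of Cd3d, Cd3e or Cd3g and fewer than 10 of S100a8 and S100a9. It was C1q-high if C1qa, C1qb and C1qc together made at least 0.2% of its UMIs and Arg1 less than 0.05%. This left 3066 of 16523 kept barcodes over both libraries. All genes of the rule are therefore described and not tested, and the same holds for every contrast with barcodes that the rule left out.

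KPC cells, a mouse pancreatic cancer line, had been injected into the pancreas of MCT1 floxed mice. MCT1, encoded by Slc16a1, carries lactate across the cell membrane. The flox tumor grew in MCT1 fl/fl hosts, and the number of mice behind each library is not stated. In the PSCs-MCT1-/- tumor a tamoxifen-inducible Cre under the Col1a2 promoter was to delete MCT1 in collagen-producing cells such as pancreatic stellate cells (PSCs), so macrophages were not its target. Tamoxifen or corn oil was given before the tumor cells, for 7 days by the study's legend and for a slightly shorter time by its methods. Which of them the flox mice received is not stated. Live cells of each tumor were taken without a sort, tumors were harvested 14 days after the injection by the study's legend and within a few weeks by its methods, and 1 library per genotype was analysed. With 1 library each there was no replicate check, and no difference between the genotypes could be tested. Genotype, tumor, library and any difference in the injected agent cannot be told apart. All intervals below are exact 95% intervals that cover counting error only.

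C1q is the recognition part of the classical complement pathway. It is built from A, B and C chains encoded by C1qa, C1qb and C1qc, and resident macrophages are its main source in most tissues. In tumors, macrophages with high C1q often carry Apoe, a lipid carrier, Mertk, a receptor for dying cells, and Trem2, a lipid-sensing receptor, and they can present antigen on MHC class II. Arg1, arginase 1, marks another state that is often found with hypoxia genes.

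The C1q chains lie next to each other on the minus strand of chromosome 4 in GRCm38. C1qb spans chr4:136880129-136886187, C1qc chr4:136889804-136893065 and C1qa chr4:136895917-136898803. Their UMIs stood in similar proportions in C1q-high and Arg1-high macrophages. C1qa had 0.809 UMIs per C1qb UMI in the C1q-high macrophages of flox and 0.836 in those of PSCs-MCT1-/-, against 0.793 and 0.789 in Arg1-high macrophages. C1qc had 0.666 and 0.689 UMIs per C1qb UMI, against 0.640 and 0.650 in Arg1-high macrophages and 0.542 and 0.562 in barcodes of 10 to 100 UMIs. Of the promoters of C1qa, C1qb and C1qc, whose RNA set the rule, those of C1qb and C1qc matched the RefSeq table and are shown. Each sequence holds 250 bases before and 50 after the RefSeq start in GRCm38.p6, on the minus strand, at chr4:136886151-136886450 for C1qb and chr4:136892865-136893164 for C1qc. Capitals mark GAGGAA, a core bound by ETS factors such as PU.1, and TGCTGA, a half-site of MAF factors, on either strand, and the matches do not overlap.
C1qb: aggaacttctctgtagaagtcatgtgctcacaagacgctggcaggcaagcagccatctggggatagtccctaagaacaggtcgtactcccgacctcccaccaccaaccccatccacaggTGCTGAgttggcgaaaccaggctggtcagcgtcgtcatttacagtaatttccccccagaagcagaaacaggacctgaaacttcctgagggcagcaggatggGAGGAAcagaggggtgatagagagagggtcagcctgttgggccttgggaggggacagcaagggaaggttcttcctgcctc
C1qc: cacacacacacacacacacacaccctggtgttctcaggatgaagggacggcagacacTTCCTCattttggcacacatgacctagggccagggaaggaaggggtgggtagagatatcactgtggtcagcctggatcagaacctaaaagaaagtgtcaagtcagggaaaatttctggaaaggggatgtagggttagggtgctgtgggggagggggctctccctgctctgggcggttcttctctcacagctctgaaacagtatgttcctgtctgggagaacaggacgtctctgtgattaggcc
C1qb held 1 match to GAGGAA and 1 to TGCTGA, and C1qc held 1 to GAGGAA, on the reverse strand, and 0 to TGCTGA. Of 32851 RefSeq promoters of the same length, 28.3% held GAGGAA and 19.5% held TGCTGA. These are matches of letters only, with no binding measured here.

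C1q-high macrophages were a large part of each library's captured cells. There were 1646 of 7337 kept barcodes in flox, 22.4% (21.5 to 23.4), and 1420 of 9186 in PSCs-MCT1-/-, 15.5% (14.7 to 16.2). Among gated macrophages their share was nearly equal, 80.7% (78.9 to 82.3) of 2041 and 81.8% (79.9 to 83.5) of 1737. C1q-high macrophages that held no UMI of genes of other types, such as keratins or collagens, made 33.0% and 44.6% of the whole gate. Cells with such genes were left out of the C1q-high set only. These values are thus not shares of a gate cleared in the same way. Arg1-high macrophages, which passed the same gate with Arg1 at 0.05% or more, numbered 337 and 294. Barcodes of the gate with neither numbered 58 and 23. The C1q-high macrophages had a median of 6356 UMIs and 2188 genes in flox and of 5256 UMIs and 1948 genes in PSCs-MCT1-/-, and summed to 11259287 and 8777645 UMIs. A single barcode sequence occurred among the C1q-high macrophages of both libraries, and 37 occurred among all kept barcodes of both.

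C1q did not separate C1q-high from Arg1-high macrophages. Of Arg1-high macrophages, 95.6% in flox and 96.6% in PSCs-MCT1-/- also met the C1q limit, so what set the C1q-high macrophages apart within the gate was mostly low Arg1. Their C1q share had a median of 1.54% in flox, with a lowest of 0.213% and a highest of 3.42%, and of 1.64% in PSCs-MCT1-/-, from 0.204% to 4.47%. In Arg1-high macrophages the medians were 1.38% and 1.56%. T cells, which should lack C1q, had medians of 0.0244% and 0%. They were kept barcodes with at least 2 UMIs of Cd3d, Cd3e and Cd3g together and none of Csf1r, Adgre1 and Cd68. That choice leaves out barcodes with macrophage RNA, so the background they give here and below may be too low. Barcodes of 10 to 100 UMIs, which hold mostly free RNA, had 0.367% and 0.248%, above the limit of 0.2% that the rule set. Just inside the limit, from 0.2 to 0.3%, lay 13 C1q-high macrophages of flox and 19 of PSCs-MCT1-/-, and just outside, from 0.1 to 0.2%, lay 14 and 7 barcodes. The Arg1 limit cut through a continuous range. Just inside it, from 0.03 to 0.05%, lay 125 and 105 C1q-high macrophages with a median of 3 and 2 Arg1 UMIs, and just outside, from 0.05 to 0.07%, lay 71 and 63 Arg1-high macrophages with a median of 5 and 3. No Arg1 UMI was found in 72.5% of C1q-high macrophages of flox and 75.2% of those of PSCs-MCT1-/-.

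**Figure D1:**
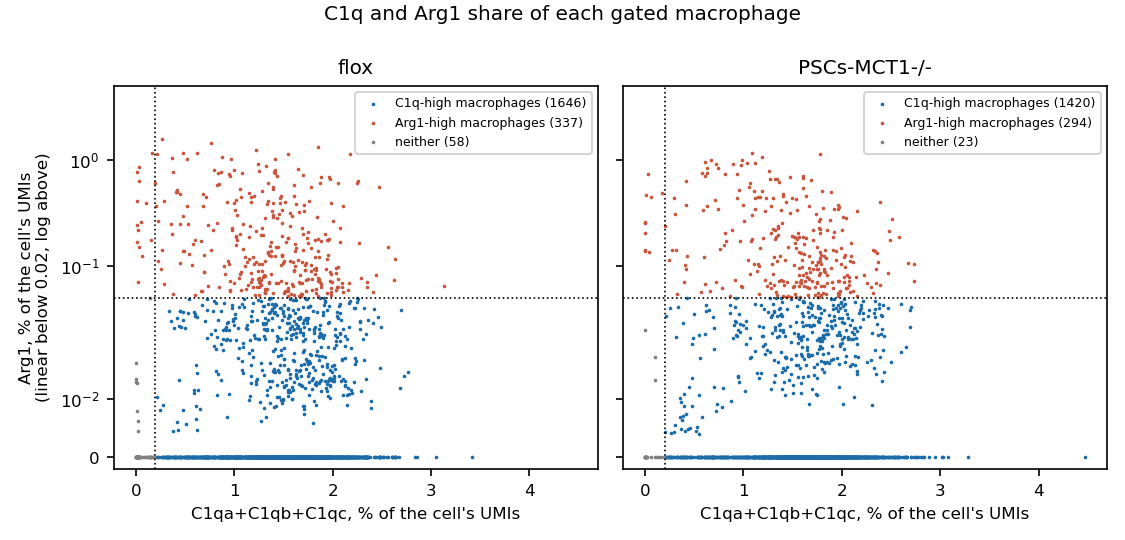
Each point is a gated macrophage of flox (left) or PSCs-MCT1-/- (right), with the share of its UMIs from C1qa, C1qb and C1qc on the x axis and from Arg1 on the y axis (linear below 0.02%, logarithmic above), both in %. Dotted lines are the limits of 0.2% and 0.05%; the 337 and 294 Arg1-high macrophages reach C1q shares of 3.13% and 2.74%, the 1646 and 1420 C1q-high ones 3.42% and 4.47%, and both sets meet at the Arg1 line without a gap.

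The label was checked against marker genes that the rule did not name, as CPM, a gene's UMIs scaled to a common total of the pool's UMIs. Apoe stood at 30420 CPM (30320 to 30530) in flox and 34730 CPM (34610 to 34850) in PSCs-MCT1-/-, and the other kept barcodes had 3155 and 1815 CPM. Ms4a7, a membrane protein of mature macrophages, stood at 945 CPM (927 to 963) in flox and 602 CPM (586 to 618) in PSCs-MCT1-/-, against 90.6 and 28 CPM in the other barcodes. Mertk stood at 272 CPM (263 to 282) in flox and 239 CPM (228 to 249) in PSCs-MCT1-/-, against 24.1 and 13.2 CPM. All 3 markers were thus at least 9.64 times as high as in the other kept barcodes of their library. The rule left those barcodes out, so this is a description. Against Arg1-high macrophages 0 of the 3 markers passed 2-fold, with median ratios of 1.18 in flox and 1.33 in PSCs-MCT1-/-. These markers thus go with macrophages of the gate and do not tell C1q-high from Arg1-high ones. With every cell thinned to 1000 UMIs, Ms4a7 was found in 56.1% (53.7 to 58.5) of C1q-high macrophages of flox and 44.1% (41.5 to 46.7) of those of PSCs-MCT1-/-, against 2.07% and 0.872% of T cells. Without thinning these shares were 92.9% and 89.2%, against 6.74% and 2.04% of T cells, whose medians were 3318 and 2770 UMIs. Mertk was found in 24% (21.9 to 26.1) and 22.6% (20.4 to 24.9) after thinning and in 66.5% and 63.3% before, against at most 1.45% of T cells.

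Markers of other cells were mostly below their level in free RNA. A cell that took up some free RNA would hold only a part of that level, so lying below it does not show that other cells' RNA was absent. The members' own hypoxia and glycolysis list was below it too, at 4232 and 3431 CPM against 6365 and 5060 CPM, while their lysosome list was above it. A UMI of Krt8, Krt18 or Krt19 was found in 46.5% of members in flox and 36.5% in PSCs-MCT1-/-. The 10 T and NK cell genes summed to 11.3 CPM in flox and 6.84 CPM in PSCs-MCT1-/-, against 185.7 and 98.1 CPM in barcodes of 10 to 100 UMIs, and 1 of the 10 had no UMI. The rule allowed no UMI of Cd3d, Cd3e or Cd3g, so a low sum of T cell genes was partly set by it. The 9 tumor and duct epithelium genes summed to 179.9 and 318.5 CPM, against 1370 and 1629 CPM in those barcodes. The 9 fibroblast and stellate cell genes summed to 557.0 and 519.5 CPM, against 1910 and 1414 CPM. The 9 neutrophil genes, among them S100a8 and S100a9 that the rule limited, summed to 143.6 and 83.9 CPM, against 1332 and 950.7 CPM. B and plasma cell genes stood at 160.1 and 394.0 CPM, against 268.6 and 223.9 CPM, so they were above free RNA in PSCs-MCT1-/-. There, 5 cells with at least 1% of UMIs from immunoglobulin genes held 93.4% of those genes' UMIs, and in flox 4 cells held 82.4%. Dendritic cell genes were above free RNA in both libraries, at 51.2 and 33.6 CPM against 37.3 and 26.0 CPM, but Batf3 alone made 38.4 and 19.4 CPM of these sums. The 12 acinar genes differed most between the libraries, at 125.1 CPM in flox and 2584 CPM in PSCs-MCT1-/-, and in barcodes of 10 to 100 UMIs they stood at 365.0 and 19560 CPM.

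Against the other kept barcodes, the genes with the highest ratios were of several kinds. Of 13494 genes with at least 50 UMIs in each library, 9.37% were at least 2-fold higher in C1q-high macrophages in both libraries and 20.2% at least 2-fold lower, and since the rule fixed this contrast nothing is read from it. The 20 highest included Adgre1, the F4/80 antigen of the gate, at ratios of 11.4 and 21.4, Cx3cr1, the fractalkine receptor, at 11.2 and 14.5, Ccl8, a monocyte-attracting chemokine, at 12.8 and 21.3, Ccl12, a chemokine of the same gene cluster, at 11.1 and 23.7, and Aoah, which inactivates bacterial lipopolysaccharide, at 11.8 and 17.3. Lilra5, an activating receptor of myeloid cells, stood at 15.7 and 29.7, Kcnj10, a potassium channel, at 16.7 and 21.7 and Slc13a3, a dicarboxylate transporter, at 15.3 and 32.9. By list, 16 of 18 measured macrophage identity genes, 13 of 16 Fc receptor and signal adapter genes, 17 of 29 lysosome genes, 13 of 19 tissue-resident macrophage genes, 12 of 17 chemokines and 9 of 13 MHC class II genes were at least 2-fold higher in both libraries. Of the 17 complement genes measured besides the C1q chains, 7 were higher. They were the receptors C3ar1, C5ar1 and C5ar2, properdin (Cfp) and the integrins Itgam, Itgax and Itgb2, while C1s1 and Serping1, a protease and the inhibitor of the C1 complex, were at least 2-fold lower.

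Within the gate, C1q-high macrophages had less of the hypoxia, inflammatory and monocyte genes than Arg1-high macrophages. Of 9544 genes measured, 70, or 0.733%, were at least 2-fold higher in both libraries and 80, or 0.838%, at least 2-fold lower. The rule used this contrast too, and nothing is read from these counts. The median ratio over all genes was 1.08 in flox and 1.06 in PSCs-MCT1-/-.

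Genes of hypoxia and glycolysis had median ratios of 0.497 and 0.605, and 20 of 21 measured were below 1 in both libraries. Bnip3, a mitophagy receptor induced by low oxygen, stood at 48 CPM in flox and 29.7 CPM in PSCs-MCT1-/-, against 218 and 111 CPM in Arg1-high macrophages, ratios of 0.221 (0.196 to 0.248) and 0.267 (0.223 to 0.321). Hilpda, a lipid droplet protein of hypoxic cells, had ratios of 0.197 and 0.301, Pgk1, a glycolytic kinase, 0.306 and 0.395, Egln3, an oxygen-sensing hydroxylase, 0.31 and 0.437, Ero1l, an oxidase of the endoplasmic reticulum, 0.27 and 0.486, and Mif, a cytokine, 0.375 and 0.421. These 6 were the list's members past 2-fold, and all were lower. No measured member was above 1 in both libraries.

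Lactate transport differed in its exporter. Slc16a3, which encodes MCT4, the lactate exporter of glycolytic cells, stood at 31.2 CPM (28 to 34.6) in flox and 13.9 CPM (11.5 to 16.6) in PSCs-MCT1-/- in C1q-high macrophages, against 123 and 54.1 CPM in Arg1-high macrophages. The ratios were 0.254 (0.218 to 0.295) and 0.257 (0.197 to 0.336). Emb, embigin, a chaperone of monocarboxylate transporters, had ratios of 0.368 and 0.488. Slc16a1 itself was scarce in C1q-high macrophages, at 6.93 CPM (5.48 to 8.65) in flox and 11.3 CPM (9.17 to 13.7) in PSCs-MCT1-/-, with ratios to Arg1-high macrophages of 1.09 (0.646 to 1.93) and 0.892 (0.571 to 1.45). The other 7 of 9 measured members were not past 2-fold in both libraries, among them Ldha, lactate dehydrogenase A, at 0.446 and 0.605 and Bsg, basigin, the chaperone of MCT1 and MCT4, at 0.643 and 0.899.

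Of 19 inflammatory genes, 8 were at least 2-fold lower and 0 higher, with median ratios of 0.470 and 0.550. Il1a had ratios of 0.295 and 0.332, Tnf 0.47 and 0.491, Cxcl1 0.293 and 0.362, Cxcl2 0.339 and 0.432, the receptor antagonist Il1rn 0.437 and 0.467, Il6 0.223 and 0.329 and Nos2, inducible nitric oxide synthase, 0.159 and 0.354. Of 15 monocyte genes, 5 were at least 2-fold lower. Ccr2, the receptor that draws monocytes out of the marrow, had ratios of 0.465 and 0.395, Fn1, fibronectin, 0.374 and 0.49, Hp, haptoglobin, 0.402 and 0.28, Chil3, a chitinase-like protein of monocytes and alternatively activated macrophages, 0.128 and 0.194 and F10, coagulation factor X, 0.0553 and 0.0985. The scavenger receptors Cd36 and Olr1 had ratios of 0.182 and 0.22 and of 0.114 and 0.23, and Hmox1, which degrades heme, of 0.431 and 0.25. F10 ranked next to Arg1 itself among all genes lower than in Arg1-high macrophages, and Chil3 was the fifth. In Arg1-high macrophages of flox and PSCs-MCT1-/- 5 cells held 62.9% and 42.1% of the Il6 UMIs. For Nos2 these shares were 40.8% and 57.1% and for Chil3 46.1% and 29.3%. For Il1a they were 16.8% and 16.7% and for Cxcl2 8.77% and 8.55%.

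Genes of resident tissue macrophages split. Folr2, a folate receptor, had ratios of 0.317 and 0.226, Pf4 0.367 and 0.354, F13a1 0.23 and 0.372, Ltc4s 0.341 and 0.304 and Fcna 0.189 and 0.384, all lower, while Selenop, a selenium carrier, stood at 1.66 and 1.27, Ccl8 at 1.64 and 1.14 and Mrc1, the mannose receptor, at 1.1 and 0.992. Of 16 measured, 5 were at least 2-fold lower and 0 higher.

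Of 11 MHC class II genes 8 were above 1 in both libraries, yet 0 passed 2-fold in both, with medians of 1.62 and 1.33. H2-Aa, the class II alpha chain, had ratios of 1.73 and 1.54, H2-Eb1, a beta chain, 1.99 and 1.65, and Cd74, the invariant chain, 1.62 and 1.51. Of 359 list genes measured, leaving out the lists of other cells and the genes of the rule, 8 (2.23%) were at least 2-fold higher in both libraries and 35 (9.75%) at least 2-fold lower. At an Arg1 limit of 0.2% these counts were 18 and 56, and with no upper gene limit 5 and 35. The 8 were Itgax (CD11c), at 2.12 (1.6 to 2.84) and 7.47 (3.37 to 20.6), Pparg, a nuclear receptor of lipid metabolism, at 3.54 and 6.65, Siglece, an inhibitory sialic acid receptor, at 2.72 and 2.82, Lilra5, at 2.07 and 3.21, Cp, the copper-binding ferroxidase ceruloplasmin, at 2.18 and 2.1, the paired channels Tmem176a and Tmem176b at 2.12 and 2.42 and at 2.38 and 2.17, and Cxcl13, a B cell chemokine. Cxcl13 had 170 and 2165 UMIs in C1q-high macrophages, 91.8% and 67.6% of them in 5 cells, against 0 and 196 in Arg1-high macrophages. Of those 196 UMIs in PSCs-MCT1-/-, 5 cells held 98%. There the ratio of Cxcl13 was 2.49, or 0.686 without cells that held genes of other types, where that of Cp was 0.737. Such cells were left out on the C1q-high side only, so these 2 values set a filtered pool against an unfiltered one. Some of these ratios rested on few Arg1-high macrophages. In those of PSCs-MCT1-/- 5 cells held 100% of the Pparg UMIs, 83.3% of the Itgax UMIs and 75% of the Lilra5 UMIs. Batf3, a transcription factor better known from dendritic cells, stood at 2.01 and 3.48. Klra17, Hpgd and Negr1 were also among the 12 highest, on 18, 2 and 2 UMIs in the Arg1-high macrophages of flox. The immunoglobulin genes Ighg2c, Iglc1 and Ighg1 ranked there as well, but 94.4%, 94.9% and 89.2% of their UMIs in the C1q-high macrophages of flox came from 5 cells, and in PSCs-MCT1-/- 95%, 99.4% and 93.8%. Without likely doublets Ighg2c had a ratio of 0.987 in PSCs-MCT1-/-.

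Heat shock genes gave the libraries different ratios, with medians of 1.97 in flox and 1.11 in PSCs-MCT1-/-. Of 28 autophagy genes 0 were past 2-fold in both libraries, with medians of 0.994 and 1.03, and of 26 interferon response genes 0, with medians of 0.983 and 0.998.

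**Figure D2:**
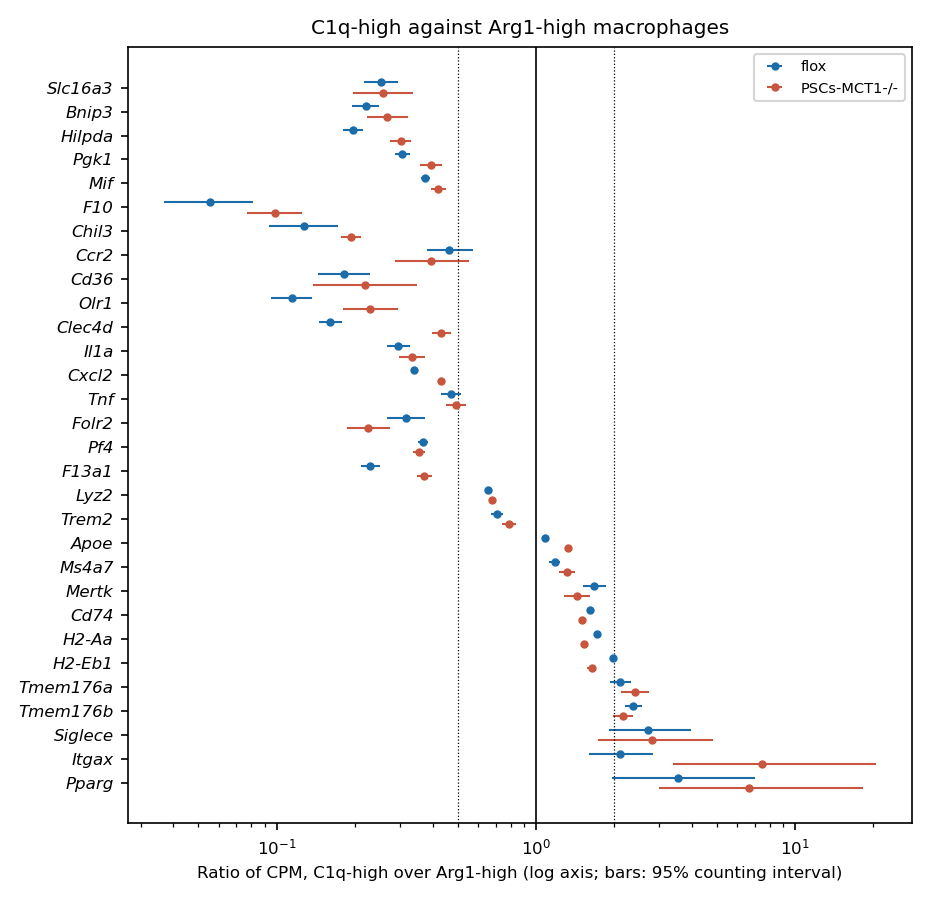
Ratio of CPM in C1q-high over Arg1-high macrophages (logarithmic x axis) for 30 genes, in flox (blue) and PSCs-MCT1-/- (red), with bars for the 95% counting interval and dotted lines at 0.5 and 2. Slc16a3, at 0.254 and 0.257, and the hypoxia, monocyte and inflammatory genes lie left of 0.5, Apoe, Ms4a7 and Mertk lie between 1 and 2, and Itgax and Pparg lie right of 2 with wide bars.

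Monocytes were too few for a comparison. Barcodes with Ly6c2 and Ccr2 that were low in C1q and Arg1 numbered 20 in flox and 6 in PSCs-MCT1-/-. Ly6c2 and Ccr2 picked these barcodes, so their levels there are not given. Among the 8 genes highest in them against C1q-high macrophages were Chil3, Hp and Ly6c2, the last of which had picked the barcodes. Others were Gzma and Nkg7, genes of cytotoxic lymphocytes, and Ccl17, a chemokine of dendritic cells. With 20 and 6 barcodes these ranks are descriptions only. Plac8, a gene of Ly6c-high monocytes, stood at 1660 CPM in flox and 1435 CPM in PSCs-MCT1-/-, while Apoe stood at 2091 CPM in flox and 1735 CPM in PSCs-MCT1-/-. In C1q-high macrophages Ccr2 stood at 24.8 CPM in flox and 12.2 CPM in PSCs-MCT1-/- and Plac8 at 124 CPM in flox and 143 CPM in PSCs-MCT1-/-. Barcodes with 2 or more Ly6c2 UMIs numbered 7 among the C1q-high macrophages of each library.

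The C1q-high macrophages varied among themselves along their C1q share. From the band of 0.2 to 0.5% to that of 2% and more, Apoe went from 9523 to 38760 CPM in flox and from 9273 to 46510 CPM in PSCs-MCT1-/-. Ms4a7 went from 274.9 to 1334 CPM and from 157.1 to 845.9 CPM, and Trem2 from 192.7 to 686.2 CPM and from 143.1 to 649.7 CPM. The lysosome list went from 13980 to 30430 CPM and from 10600 to 29840 CPM. Mertk was higher in each band of PSCs-MCT1-/- than in the band before it, from 29.7 to 314.8 CPM, but in flox it was highest, at 334.2 CPM, in the band of 0.5 to 1%. Ccr2 was highest in the band of 0.5 to 1%, at 52.97 CPM in flox and 26.8 CPM in PSCs-MCT1-/-, against 28.4 and 13 CPM in the band below it and 7.35 and 3.79 CPM in the top band. The lowest band held 68 and 69 cells, with 3725 and 1736 CPM of fibroblast genes and 784.4 and 1283 CPM of epithelial genes, against 175.9 and 101.6 CPM and 110.2 and 104.1 CPM in the top band. In PSCs-MCT1-/- its median was 16620 UMIs, and the part of doublets in these values was not tested.

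**Figure D3:**
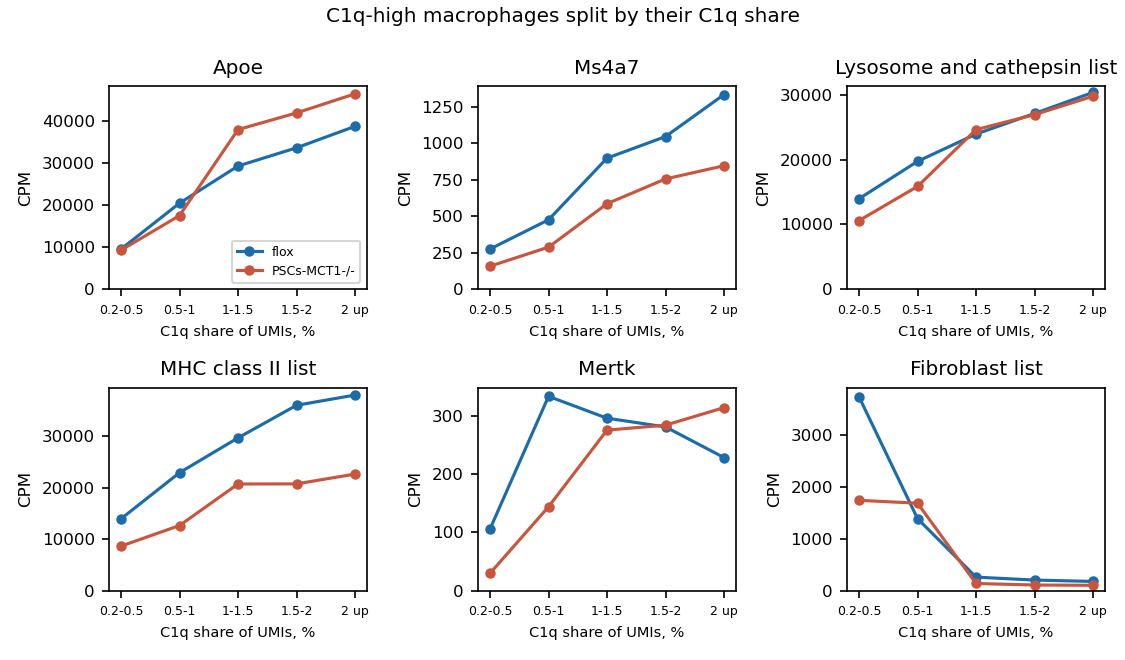
CPM of Apoe, Ms4a7, the lysosome list, the MHC class II list, Mertk and the fibroblast list (y axes from 0) in C1q-high macrophages split into 5 bands by their C1q share (x axis, % of UMIs), in flox (blue) and PSCs-MCT1-/- (red). Apoe, Ms4a7, the lysosome list and the class II list are higher in each band than in the first, and the fibroblast list is highest in the lowest bands, at 3725 CPM in the first band of flox.

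Across single cells thinned to 1000 UMIs, the lysosome list went with the lipid list, with Spearman's rho of 0.373 over 1646 cells of flox and 0.466 over 1420 cells of PSCs-MCT1-/-, and both lists hold Gpnmb and Lipa. The interferon list went with the chemokine list, at 0.398 and 0.365, and both hold Cxcl9 and Cxcl10. Heat shock went with immediate-early genes at 0.456 in flox and at 0.143 in PSCs-MCT1-/-. The cells of a library share its depth and its free RNA, so these values are descriptions. Cycling cells, with at least 3 UMIs over Mki67, Top2a, Cdk1, Ccnb1, Birc5 and Ube2c, made 13.3% (11.7 to 15.0) of C1q-high macrophages in flox and 10.4% (8.82 to 12.1) in PSCs-MCT1-/-. They had medians of 9018 and 8606 UMIs, against 6120 and 5060 UMIs in the rest. The shares in Arg1-high macrophages were 14.8% and 11.2%.

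Between the libraries, C1q-high macrophages of PSCs-MCT1-/- had less heat shock, MHC class II, Cx3cr1 and Fcrls RNA, and more Mrc1, F13a1 and Clec4d RNA, while Mertk and Apoe had ratios of 0.876 and 1.14. The rule did not use this contrast, though it set limits on its own genes in both libraries. Of 10995 genes with at least 50 UMIs over both, 3.11% were at least 2-fold higher in PSCs-MCT1-/- and 2.83% at least 2-fold lower, with a median ratio of 1.02. These were 342 and 311 genes, against 216 higher without likely doublets and 1818 higher and 600 lower with free RNA scaled by acinar genes subtracted. That subtraction takes 34.6% of the members' UMIs in flox and 13.1% in PSCs-MCT1-/- as free RNA, so it lowers the flox side more. Lists of other cells stood at differing parts of their level in barcodes of 10 to 100 UMIs. In flox the red blood cell genes had 2.04 CPM against 62.55 CPM there. The tumor and duct epithelium genes had 179.9 against 1370 CPM and the endothelium genes 38.4 against 54.7 CPM. Whether so large a part of the flox UMIs was free RNA was not tested. With free RNA scaled by keratins the genes higher and lower numbered 473 and 417. Of 379 list genes measured, leaving out the lists of other cells, 29 (7.65%) were higher and 33 (8.71%) lower. For the main genes the ratio in Arg1-high macrophages, in all other kept barcodes and in barcodes of 10 to 100 UMIs is given beside it where it differs or bears on free RNA.

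The targeted gene was checked first. In kept barcodes with at least 1% of UMIs from Col1a1, Col1a2 and Col3a1 and no Ptprc, 101 in flox and 98 in PSCs-MCT1-/-, Slc16a1 was counted 31 times in each library. This came to 26.8 CPM in flox, with an interval of 18.2 to 38.1, and to 33.2 CPM in PSCs-MCT1-/-, from 22.5 to 47.1. It was not lower in the library labelled PSCs-MCT1-/-. Counts summed over a gene do not separate the floxed exons, so this does not show whether they were deleted. The study reports lower MCT1 in the PSCs it annotated in its single-cell data. It also reports this for primary PSCs by Western blot and PCR and for pancreas sections by staining. The barcodes here were picked by collagen and Ptprc only and are not its PSC cluster. In C1q-high macrophages Slc16a1 had a ratio of 1.63 (1.2 to 2.22) on 78 and 99 UMIs.

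The C1q chains, Csf1r and Adgre1 were used by the rule in both libraries, so their values are a description. C1qa had a ratio of 0.963 (0.95 to 0.975), C1qb of 0.931 (0.921 to 0.942) and C1qc of 0.964 (0.95 to 0.977), while Csf1r, the receptor of the growth factor CSF1, had 0.927 (0.892 to 0.963) and Adgre1 0.676 (0.637 to 0.717). Of genes that the rule did not use, Apoe had 1.14 (1.14 to 1.15), Mertk 0.876 (0.829 to 0.927) and Trem2 0.92 (0.884 to 0.957). Lyz2, lysozyme, had 0.748 (0.738 to 0.757) and Aif1, an actin-binding protein of macrophages, 0.571 (0.552 to 0.59). Ms4a7 was the lowest of the 6 markers at 0.637 (0.616 to 0.658), and in Arg1-high macrophages it had a ratio of 0.571. Of 21 macrophage identity genes, 1 was at least 2-fold lower and 0 higher, with a median of 0.843.

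That gene was Cx3cr1, which stood at 524 CPM (511 to 538) in flox and 205 CPM (196 to 214) in PSCs-MCT1-/-, a ratio of 0.391 (0.37 to 0.412). Fcrls, a scavenger-type Fc receptor-like gene of mouse macrophages and microglia, stood at 312 CPM (302 to 322) in flox and 66.9 CPM (61.6 to 72.5) in PSCs-MCT1-/-, a ratio of 0.214 (0.196 to 0.234). After thinning, Fcrls was found in 26.1% (24 to 28.3) and 6.69% (5.45 to 8.12) of the cells, and Cx3cr1 in 38.7% (36.3 to 41.1) and 17.8% (15.9 to 19.9), against 0.777% and 0% and 7% and 3.49% of T cells. Lilra5, at 0.362 (0.291 to 0.447), Cd72, a co-receptor of B cells and macrophages, at 0.466 (0.437 to 0.496), Ccl12, at 0.474 (0.452 to 0.497), and Tlr12, a sensor of microbial profilin, at 0.312 (0.236 to 0.409), were lower as well. Ccl8 had 0.522 (0.509 to 0.535). Arg1-high macrophages had ratios of 0.465 for Cx3cr1, 0.266 for Fcrls, 0.413 for Cd72, 0.482 for Ccl12 and 1.19 for Tlr12, and barcodes of 10 to 100 UMIs had 0.352, 0.167, 0.356, 0.374 and 0.262. Cx3cr1, Fcrls, Cd72 and Ccl12 were thus lower in the library's Arg1-high macrophages and free RNA as well. For Tlr12 the Arg1-high macrophages had 18 and 15 UMIs, which gave an interval of 0.56 to 2.51.

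MHC class II RNA was lower in PSCs-MCT1-/-. H2-Aa stood at 5927 CPM in flox and 3539 CPM in PSCs-MCT1-/-, H2-Eb1 at 5138 CPM in flox and 2432 CPM in PSCs-MCT1-/- and Cd74 at 13430 CPM in flox and 8367 CPM in PSCs-MCT1-/-. The ratios were 0.597 (0.589 to 0.605), 0.473 (0.466 to 0.481) and 0.623 (0.617 to 0.628). Ciita, the master regulator of class II transcription, stood at 55.9 CPM (51.6 to 60.4) in flox and 13.3 CPM (11 to 16) in PSCs-MCT1-/-, a ratio of 0.239 (0.194 to 0.291). Of 13 class II genes measured, 12 were below 1, and H2-Eb1, H2-Ob and Ciita were at least 2-fold lower, with a list median of 0.626. The median was 0.75 in Arg1-high macrophages, 0.474 in all other kept barcodes and 0.615 in barcodes of 10 to 100 UMIs. In single C1q-high macrophages the class II list took a median of 2.93% of UMIs in flox, from 0.719% at the 10th to 5.81% at the 90th percentile. In PSCs-MCT1-/- it took 1.48%, from 0.178% to 4.84%, so the ranges overlapped widely. After thinning, H2-Aa was found in 90.8% (89.3 to 92.2) and 73.7% (71.3 to 75.9) of cells, against 16.1% and 8.72% of T cells.

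Of 27 interferon-response genes, 6 were at least 2-fold lower, 1 was at least 2-fold higher and 7 were above 1, with a median of 0.749. Bst2, tetherin, which holds budding virus at the membrane, had a ratio of 0.442 (0.421 to 0.464), Ifit2 0.441 (0.367 to 0.528) and Oasl2 0.464 (0.382 to 0.561). Usp18 had 0.424 (0.293 to 0.603), Ifi44 0.332 (0.198 to 0.536) and Ifit3 0.498 (0.371 to 0.663). Ifit3 was at 1.93 once free RNA scaled by acinar genes, taken as a larger part in flox, was subtracted. Socs1, an inhibitor of cytokine signalling, was at 2.04 (1.62 to 2.57). The T cell chemokine Cxcl9 had 0.676 (0.659 to 0.694) and Cxcl10 0.953 (0.913 to 0.994). The list median was 0.804 in Arg1-high macrophages, 0.587 in all other kept barcodes and 0.629 in barcodes of 10 to 100 UMIs. Bst2 was lower in each of those pools too, at 0.403, 0.435 and 0.412.

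Heat shock genes had the lowest median ratio of the lists of macrophage genes. All 14 were below 1 and 9 were at least 2-fold lower, with a median of 0.398. Hspa1a, an inducible HSP70, stood at 1196 CPM (1176 to 1216) in flox and 109 CPM (102 to 116) in PSCs-MCT1-/-, a ratio of 0.0913 (0.0854 to 0.0975), Hsph1 at 0.0489 (0.0405 to 0.0584), Hsp90aa1 at 0.292 (0.282 to 0.303) and Dnajb1 at 0.229 (0.21 to 0.25). Dnajb1 was at 1.08 once free RNA scaled by acinar genes, taken as a larger part in flox, was subtracted. The median was 0.671 in Arg1-high macrophages, 0.433 in all other kept barcodes and 0.475 in barcodes of 10 to 100 UMIs, so all pools of the library moved the same way. The immediate-early genes Jun and Atf3, which respond to stress and handling, had ratios of 0.434 (0.422 to 0.446) and 0.423 (0.41 to 0.437), and Myc had 2.13 (1.83 to 2.49), or 1.25 without cells that held genes of other types. The part of tissue dissociation in these values was not tested.

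Some genes of the resident macrophage list were higher in PSCs-MCT1-/- and others were not. Mrc1 stood at 366 CPM (354 to 377) in flox and 707 CPM (690 to 725) in PSCs-MCT1-/-, a ratio of 1.94 (1.86 to 2.01), just under 2-fold. F13a1, the A chain of coagulation factor XIII, stood at 91.8 CPM (86.2 to 97.5) in flox and 268 CPM (257 to 279) in PSCs-MCT1-/-, a ratio of 2.92 (2.71 to 3.15), and Clec10a, a galactose-type lectin receptor, had 2.19 (1.79 to 2.68). Of 19 resident genes measured, 6 were at least 2-fold higher and 0 lower, with a median of 1.38, against 1.80 in Arg1-high macrophages, 0.824 in all other kept barcodes and 0.906 in barcodes of 10 to 100 UMIs. The other 4 rested on few transcripts. Lyve1, Cd163, Vsig4 and Fcna stood at 2.75, 3.64, 1.42 and 2.4 CPM in flox and 12.7, 10.9, 5.7 and 19.8 CPM in PSCs-MCT1-/-. In flox 90.3%, 65.8%, 81.2% and 55.6% of their UMIs came from 5 cells. Folr2, Pf4 and Igf1, a growth factor, had 0.899 (0.755 to 1.07), 0.776 (0.742 to 0.812) and 0.589 (0.501 to 0.691), so the list did not move as a whole. Mrc1 was found in 29.4% (27.2 to 31.7) and 46.8% (44.1 to 49.4) of cells after thinning, against 0.518% and 0.291% of T cells.

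Of 16 monocyte genes, 8 were at least 2-fold higher and Ccr2, at 0.492 (0.39 to 0.617), was lower, with a median of 2.05, against 1.72 in Arg1-high macrophages, 0.846 in all other kept barcodes and 0.968 in barcodes of 10 to 100 UMIs. Several of the 8 rested on few transcripts. Ifitm6 had 20 UMIs in flox and 34 in PSCs-MCT1-/-, F10 had 33 and 101, and of the 80 UMIs of Hp in flox 77.5% came from 5 cells. Chil3 stood at 5.77 CPM (4.46 to 7.36) in flox and 111 CPM (104 to 119) in PSCs-MCT1-/-, a ratio of 19.3 (15 to 25.2). Leaving out likely doublets gave a ratio of 33.5, and leaving out cells that held genes of other types gave 10.6. The Chil3 ratio was 12.7 in Arg1-high macrophages, 3.12 in all other kept barcodes and 6.75 in barcodes of 10 to 100 UMIs. After thinning Chil3 was found in 0.304% (0.0987 to 0.708) and 3.03% (2.2 to 4.06) of C1q-high macrophages, against 0.518% and 1.16% of T cells, so in flox the share was not above background. Before thinning the shares were 2% and 6.62%, against 0.777% and 2.62%, and 47.7% and 42.3% of its UMIs came from 5 cells. Ly6c2, at 2.76 (2.24 to 3.42), had 71.8% and 88.3% of its UMIs in 5 cells, and its ratio was 0.786 without likely doublets. S100a4 and S100a6, small calcium-binding proteins, had 2.99 (2.85 to 3.13) and 2.17 (2.11 to 2.24), and S100a6 had 1.22 without cells that held genes of other types. Their ratios were 2.2 and 1.59 in all other kept barcodes. Clec4d and Clec4e, C-type lectins that sense mycobacterial and dead-cell glycolipids, had 3.11 (2.84 to 3.41) and 2.84 (2.53 to 3.19), against 1.16 and 1.45 in Arg1-high macrophages and 0.559 and 0.447 in all other kept barcodes. The 5 cells with most held at most 18.1% of their UMIs. Both were at least 2-fold lower in C1q-high than in Arg1-high macrophages in each library, at 0.161 and 0.433 for Clec4d and 0.227 and 0.445 for Clec4e, and the difference between pools was not tested.

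Slc16a3 was lower, at 0.446 (0.36 to 0.549), and Emb higher, at 2.21 (1.94 to 2.52). Slc16a3 had ratios of 0.44 in Arg1-high macrophages, 0.287 in all other kept barcodes and 0.403 in barcodes of 10 to 100 UMIs. Ldha had 0.83 (0.791 to 0.871) and Bsg 0.903 (0.854 to 0.956). Of 22 hypoxia and glycolysis genes, 3 were at least 2-fold lower and 0 higher, with a median of 0.763. They were the growth factor Vegfa, at 0.495 (0.443 to 0.553), Pfkl, a phosphofructokinase, at 0.459 (0.375 to 0.558), and P4ha1, a collagen hydroxylase, at 0.429 (0.381 to 0.482). Hilpda went the other way, at 1.43 (1.31 to 1.56). Hmox1 had 0.371 (0.343 to 0.401) and Cd36 0.38 (0.26 to 0.544).

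Il6 and Cxcl1 were higher, at 5.41 (4.02 to 7.4) and 2.05 (1.91 to 2.2), with 45.5% and 20.7% of the Il6 UMIs in 5 cells. Il12b, a subunit of interleukins 12 and 23, was lower at 0.235 (0.19 to 0.289), with 44.8% and 57.4% of its UMIs in 5 cells. Tnf, Il1a and Cxcl2 had 1.34 (1.25 to 1.44), 1.15 (1.03 to 1.27) and 1.34 (1.32 to 1.37). Of 16 chemokines Ccl12 was at least 2-fold lower, and Cxcl13 and Ccl24 were higher, at 16.3 (14 to 19.2) and 2.89 (1.96 to 4.33), but 5 cells held 91.8% and 67.6% of Cxcl13 and 48.7% and 40.9% of Ccl24. Of 18 complement genes C2, a classical pathway protease, was higher at 2.04 (1.3 to 3.23). It had 34 and 54 UMIs, 32.4% and 31.5% of them in 5 cells. Of 22 lipid-associated genes the apolipoprotein Apoc1 was higher at 2.13 (1.61 to 2.82) and Cd36 lower. Of 22 growth and matrix factors the growth factor Areg was higher at 3.82 (2.78 to 5.34), or 2.04 with no upper limit on genes. Vegfa and the collagenase Mmp13 were lower there, Mmp13 at 0.314 (0.19 to 0.499). Over all genes measured 3.11% were at least 2-fold higher and 2.83% at least 2-fold lower, so nothing is read from these counts. Of 23 immune regulation genes Vsig4 was at least 2-fold higher, and Lilra5, Hmox1 and Pdcd1lg2, which encodes PD-L2, at least 2-fold lower, with Pdcd1lg2 at 0.3 (0.14 to 0.587) on 47 and 11 UMIs. The receptor Sirpa, which restrains phagocytosis, had 0.747 (0.706 to 0.79) and the checkpoint ligand Cd274 (PD-L1) 0.727 (0.663 to 0.797). Autophagy genes were within 2-fold in 28 of 28 and cell cycle genes in 22 of 22, with a median of 0.718 for the cell cycle. Lysosome genes were within 2-fold in 29 of 30, with Ctsk the exception at 2.64 (1.44 to 5.03), on 17 and 35 UMIs.

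The ratios furthest above 1 were those of other cells' genes. The 12 genes most above 2-fold in PSCs-MCT1-/- were acinar enzymes or secretory proteins, with Ctrb1, a chymotrypsinogen, at 31.4 (27.9 to 35.5) and Pnlip, pancreatic lipase, at 53.6 (35.2 to 86). Subtracting free RNA scaled by keratins left no counts of either in PSCs-MCT1-/-. All 12 acinar list genes were at least 2-fold higher, with a median of 24.4, against 24.8 in Arg1-high macrophages, 7.54 in all other kept barcodes and 60.6 in barcodes of 10 to 100 UMIs. On the lower side, Gkn1 and Tff1, stomach-type mucosal peptides, had 112 and 208 UMIs in the C1q-high macrophages of flox and 0 and 1 in those of PSCs-MCT1-/-, and 58.3 and 112 CPM in the barcodes of 10 to 100 UMIs of flox. The 12 lowest genes also held Zbed5, with 87 UMIs in flox and 2 in PSCs-MCT1-/-, Gal3st4, with 107 and 5, and the heat shock gene Hsph1.

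**Figure D4:**
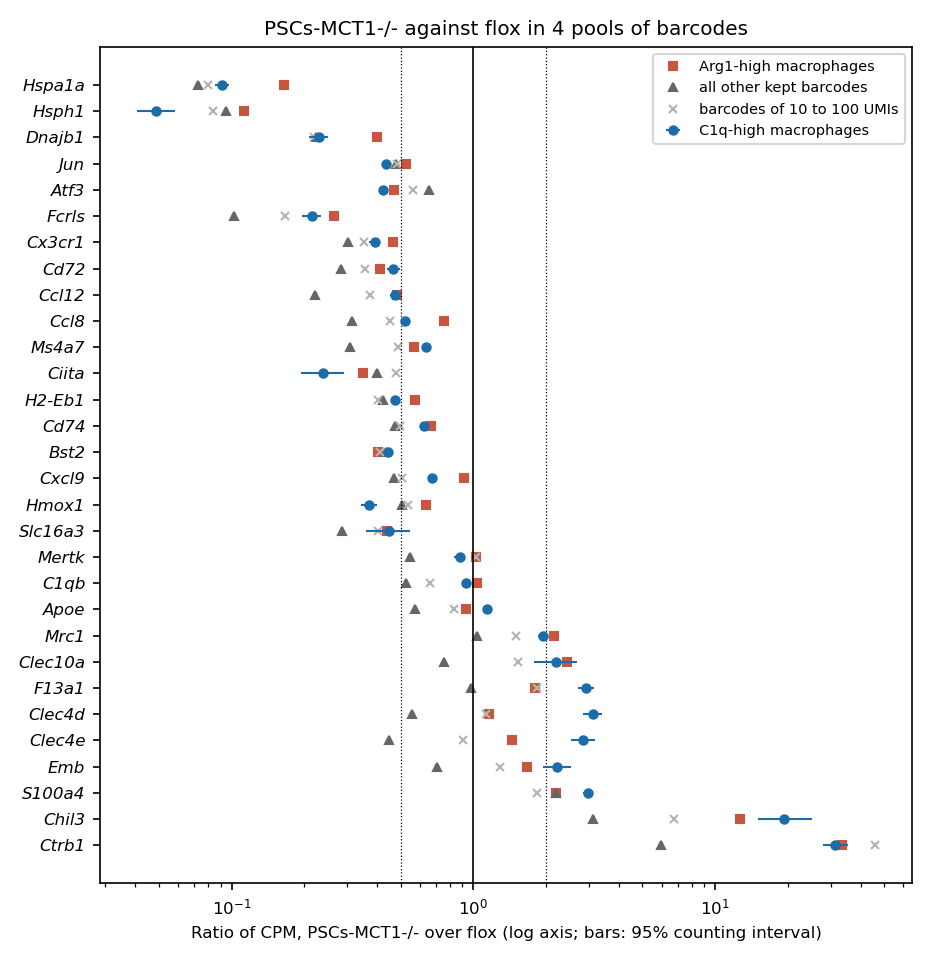
Ratio of CPM in PSCs-MCT1-/- over flox (logarithmic x axis) for 30 genes, in C1q-high macrophages (blue circles with 95% counting intervals), Arg1-high macrophages (red squares), all other kept barcodes (grey triangles) and barcodes of 10 to 100 UMIs (crosses), with dotted lines at 0.5 and 2. The heat shock genes drawn (Hspa1a, Hsph1 and Dnajb1) and Fcrls lie left of 0.5 in all 4 pools, the C1q chain C1qb and Mertk lie near 1 in the macrophages, and for Clec4d and Clec4e the C1q-high macrophages lie right of 2 and the other 3 pools left of it.

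**Figure D5:**
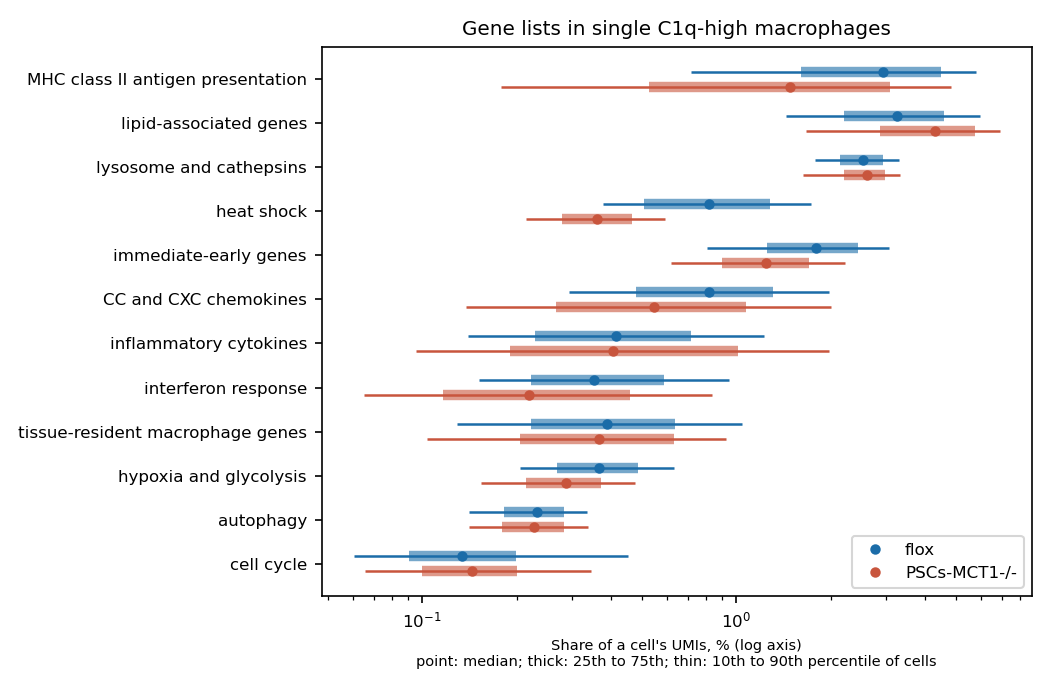
Share of a cell's UMIs taken by each of 12 gene lists (logarithmic x axis, %) in the C1q-high macrophages of flox (blue) and PSCs-MCT1-/- (red): points are medians, thick bars the 25th to 75th and thin bars the 10th to 90th percentile of cells. The heat shock medians are 0.818% and 0.360%, the class II medians 2.93% and 1.48%, and the autophagy medians 0.231% and 0.227%.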

How the data were processed

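Tumors of 1 flox and 1 PSCs-MCT1-/- library were read with cell barcodes and UMIs, for which the labels and the methods name different kits. The authors trimmed the reads with Fastp, used SeekOneTools to count UMIs, and deposited the unfiltered counts of 32285 mouse genes. The submitters' processing notes name Seurat 4.0.0 and GRCh38, a human build, and the mouse build is not given in the sources used here. Barcodes were kept and gated as stated in the report. Summed counts were scaled to the pool's total (CPM) with exact Poisson intervals, ratios with conditional exact intervals and shares with Clopper-Pearson intervals. A gene was measured with at least 50 UMIs over both sides, and past 2-fold only if so in each library where both were used. No test was run, since cells are not replicates. Shares of cells with a UMI were taken after thinning each cell to 1000 UMIs. Genes named in the text were members of the gene lists, the 20 highest ratios against other barcodes, the 12 in each direction against Arg1-high macrophages and between libraries, and the 8 in each direction against monocytes. The members and lists were chosen with earlier results of these data known. Intervals came from scipy 1.17.1 and neighbours from scikit-learn 1.9.0, under Python 3.11.15, and the calculation of ratios was tested on simulated data. The UMI, gene, mitochondrial, gate, C1q and Arg1 limits, doublets, cells with genes of other types, the CPM total, the weight of cells, free RNA, the gene minimum and the thinning depth were varied. Doublets were kept in the main values. As an alternative the 8% of barcodes per library nearest to simulated doublets were left out. Free RNA was read from barcodes of 10 to 100 UMIs and not subtracted in the main values.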

Additional observations from a re-analysis of the deposited data

Results flagged for a closer look

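Jchain, which joins immunoglobulin chains, had a ratio of C1q-high over Arg1-high macrophages of 0.131 in flox and 10.8 in PSCs-MCT1-/-, on opposite sides of 1. Col1a2, a collagen gene, had ratios of 8.76 and 0.455. Both are genes of other cell types, and neither difference was tested.

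Barcodes with more than 5000 genes that met the rest of the rule were left out, 60 in flox and 15 in PSCs-MCT1-/-. Their median was 29270 and 27320 UMIs and their median C1q share 0.360% and 0.321%. Krt18, an epithelial keratin, stood at 370 and 575 CPM in them, against 71.1 and 107 CPM in the C1q-high macrophages. Barcodes with more than 8% mitochondrial UMIs that met the rest of the rule numbered 33 and 10, with median C1q shares of 0.881% and 1.39%.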

How the results depend on the processing

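No paired analysis was possible because each genotype had 1 library and no test was run. The counts against the other kept barcodes stayed within 1.5 times of their main values under each alternative run. Of kept barcodes, C1q-high macrophages made 28.3% and 19.5% (flox, PSCs-MCT1-/-) at a minimum of 2000 UMIs, 18.9% and 12.2% at 500, 18.1% and 13.8% with no upper gene limit, 18.4% and 11.3% with a gate of 5 UMIs, 25.3% and 17.5% at an Arg1 limit of 0.2%, and 14.7% in PSCs-MCT1-/- at a C1q limit of 0.5%. Of the gate they made 78.5% in flox with no upper gene limit, 77.3% and 77.8% at a C1q limit of 0.5% and 90.8% and 92.5% at an Arg1 limit of 0.2%. Without cells that held genes of other types, 674 and 774 were left, 9.19% and 8.43% of kept barcodes and 33.0% and 44.6% of the gate. Such cells were left out of the C1q-high set only, while the kept barcodes and the gate stayed whole.

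Against Arg1-high macrophages, genes higher and lower in both libraries numbered 298 and 151 at an Arg1 limit of 0.2%, 123 and 134 at a gene minimum of 10 UMIs, and 25 and 43 at 200 UMIs. The higher genes numbered 138 with free RNA subtracted by acinar genes. With cells that held genes of other types left out on the C1q-high side only, they numbered 43. With free RNA scaled by keratins, chosen after seeing the data, they numbered 140 higher and 134 lower. List genes higher than in Arg1-high macrophages numbered 5 with no upper gene limit, with each cell weighted equally and at 200 UMIs, and 18 at an Arg1 limit of 0.2%, where 56 were lower.

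Between libraries, genes higher in PSCs-MCT1-/- numbered 216 without likely doublets and 186 without cells that held genes of other types. Genes higher and lower numbered 1818 and 600 with free RNA subtracted by acinar genes, which left 64 list genes higher, 473 and 417 with free RNA subtracted by keratins, 908 and 750 at a gene minimum of 10 UMIs and 140 and 134 at 200 UMIs. A gene minimum changes the number of genes tested by construction, and the cause of the other changes was not tested.

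The shares of cells with a Mertk UMI were 14.2% and 12.5% thinned to 500 UMIs and 66.5% and 63.3% unthinned, and with a Ms4a7 UMI 34.2% and 26.6%, and 92.9% and 89.2%.

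Of 3639 gene ratios recomputed, 2766 stayed within the counting interval of their main value and 862 moved outside it. Ratios within 2-fold in the main values were counted by that interval only, on whichever side of 1 they fell. The other 11 were at least 2-fold in the main values and changed sides of 1. Without likely doublets these were Ighg2c over Arg1-high macrophages in PSCs-MCT1-/- at 0.987 and, between libraries, Ly6c2 at 0.786 and Krt19 at 0.704. Without cells that held genes of other types, left out on the C1q-high side only, they were Cxcl13 at 0.686 and Cp at 0.737 over Arg1-high macrophages in PSCs-MCT1-/-. With free RNA subtracted by acinar genes they were Dnajb1 at 1.08, Ifit3 at 1.93, Gkn1 at 1.28 and Tff1 at 1.28, and by keratins Ctrb1 at 0.0248 and Pnlip at 0.348. The last 4 values are set by the floor of 3 counts, at which both libraries stood for Gkn1 and Tff1 and PSCs-MCT1-/- for Ctrb1 and Pnlip, and say nothing of a direction. The acinar subtraction takes 34.6% of the members' UMIs in flox and 13.1% in PSCs-MCT1-/-. Subtraction against other kept barcodes was not run, since those hold acinar cells, and the alternatives for monocytes were not run.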
